A study of Homo sapiens with 112 samples.

Results

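The change in the androgen response of VCaP cells between 8 h and 22 h was examined gene by gene. VCaP is a human prostate cancer cell line that responds to androgen and carries a fusion placing ERG under the control of the TMPRSS2 promoter. For each gene, the effect of the synthetic androgen R1881 against vehicle at 22 h was compared with its effect at 8 h. A gene was tested when 4 or more VCaP libraries held 10 or more of its reads, which kept 19266 of the 58684 genes in the count table. Of the 39418 genes left out, 20098 had no read in any VCaP library. At the limit itself, 340 genes had a fourth-highest count of 10 and were kept, and 347 had a fourth-highest count of 9 and were left out.

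Before treatment, all cells were kept without hormone, in charcoal-stripped serum, for 2 days. The vehicle group received DMSO alone and comprised 10 libraries at 8 h and 8 at 22 h. The R1881 group received 1 nM R1881 and comprised 10 libraries at 8 h and 9 at 22 h. Further VCaP libraries from cells treated with 1 nM R1881 plus the antagonist darolutamide numbered 4 at each time for 0.5 µM and 5 at each time for 2 µM. They shared in the estimate of the spread. The series holds 112 RNA-seq libraries, of which 55 are from VCaP cells and 57 from LAPC4, another androgen-responsive prostate cancer line. The labels number the libraries of a group but do not name separate cultures, so p-values measure the spread between these libraries, part of which may be technical.

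Androgens are steroid hormones that change the transcription of their target genes within hours. Later changes can also follow through the products of the first responders, which include enzymes, secreted regulators and other transcription factors. In prostate cells the androgen response is known for secreted proteases such as prostate-specific antigen, for lipid synthesis, for protein secretion and for control of cell division.

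Total counts in the 37 libraries of the 4 compared groups ranged from 12870607 to 25125789, with a median of 20145735. The luminal prostate genes KRT8, KRT18, HOXB13, KLK3, FOLH1 and TMPRSS2 had reads in all 37 libraries. Read ranges of markers are given over all VCaP libraries, those with darolutamide included, and ERG had 1578 to 21554. Of the markers of other cell types, 4 of 5 basal, 6 of 7 fibroblast, 3 of 5 leukocyte and 4 of 4 endothelial genes had reads in at least 1 library, while KRT5 (basal), COL1A2 (fibroblast) and CD3E (lymphocyte) had none. Summed levels in CPM over total counts, in the order DMSO and R1881 at 8 h and then DMSO and R1881 at 22 h, were 99.1 to 117, 81.2 to 98.8, 93.6 to 115 and 74.5 to 88.3 for the basal list, where DST alone had 1211 to 2501 reads and KRT14 and KRT15 at most 20 and 21. The fibroblast list was at 26.6 to 33.9, 2.56 to 4.85, 28.4 to 32.0 and 0.988 to 2.22, of which LUM, with 2 to 657 reads, fell at both times, and COL1A1 and PDGFRB had at most 40 and 45 reads. The endothelial list was at 0.292 to 1.03, 0.219 to 0.784, 0.424 to 0.872 and 1.86 to 3.18, and VWF, with 2 to 64 reads, was a late rise. No leukocyte marker had more than 6 reads in a library. The part of these genes in the results was not tested. Other levels are CPM, read counts expressed per unit of library size and so comparable between libraries but not, for genes of different length, between genes, with library sizes scaled by TMM. Differences are log2 fold changes ± standard error, and the change of the R1881 effect is the log2 fold change at 22 h minus that at 8 h.

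The R1881 effect differed between the times for 11633 of 19266 genes, which is 60.4% of all tested (edgeR's quasi-likelihood test, Benjamini-Hochberg adjusted p under 0.05). It was higher at 22 h for 5411 genes (28.1%) and lower for 6222 (32.3%). Past an absolute log2 difference of 1 there were 1088 genes higher (5.65%) and 1680 lower (8.72%). R1881 against DMSO itself was called for 66.9% of genes at 8 h and for 77.4% at 22 h. The 8 h calls were 6327 higher and 6564 lower, but 5228 and 8192 with upper-quartile scaling and 4658 and 9058 with total counts, which moved the median gene from −0.03 to −0.13 and −0.18. Small 8 h effects are therefore read relative to that shift. With so many genes called, the size of a change separates genes better than the call, and the groups that follow were set by size. A gene was taken as responsive at a time when it was called there with an absolute log2 fold change of at least 1.

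Early transient genes were responsive at 8 h, lay within 0.5 log2 units of DMSO at 22 h and were called for the difference between the times. They numbered 197 rises and 179 falls, together 1.95% of tested genes. Sustained genes, responsive at both times in the same direction, numbered 752 rises and 1099 falls, together 9.61%. Late genes, responsive at 22 h and within 0.5 log2 units of DMSO at 8 h, numbered 553 rises and 823 falls, together 7.14%. Sign-switching genes were called in opposite directions at the 2 times by at least 0.5 log2 units each. They numbered 278 (1.44%), of which 162 fell and then rose and the others rose and then fell. Another 1756 responsive genes lay between these definitions. With them the groups held 5637 genes, which include sign-switching genes that did not reach 1 at either time. These groups were built from the same fold changes, so their medians describe them and are not a test.

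**Figure D1:**
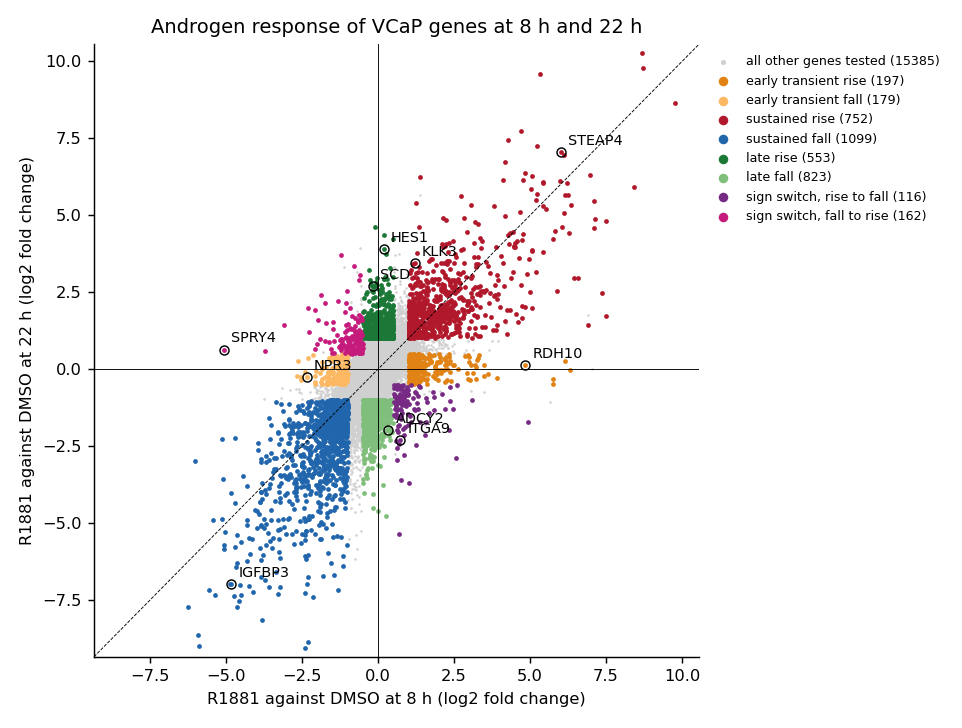
Each point is a tested gene, with its log2 fold change of R1881 against DMSO at 8 h on the x axis and at 22 h on the y axis, coloured by response group. Sustained genes lie along the diagonal, early transient genes such as RDH10 and NPR3 lie near the x axis, late genes such as SCD and ADCY2 near the y axis, and sign-switching genes such as ITGA9 and SPRY4 in the opposite quadrants.

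The median early rise went from a log2 fold change of 1.34 at 8 h to 0.10 at 22 h, and the median early fall from −1.28 to −0.19. The median late rise went from 0.18 to 1.27 and the median late fall from −0.18 to −1.33. Genes that rose and then fell went from 0.82 to −1.07, and genes that fell and then rose from −0.81 to 0.84. Over all tested genes the median was −0.03 at both times.

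A change of the R1881 effect can come from the treated cells, the vehicle cells or both. Early rises dropped by a median of 1.36 log2 units in the R1881 libraries from 8 h to 22 h, while the median change in the DMSO libraries was 0.03. Late rises gained 0.98 with R1881 and changed by −0.16 with DMSO, and late falls changed by −1.20 and 0.00. The DMSO libraries moved more than the R1881 libraries in 7 of 197 early rises, 24 of 179 early falls, 40 of 553 late rises, 24 of 823 late falls and 5 of the 278 sign-switching genes. Among all tested genes they moved more in 23.3%.

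RDH10, a retinol dehydrogenase that makes the precursor of retinoic acid, showed the largest loss among the more abundant early rises, those above the median level of all tested genes. Its level was 29.7, 32.1 and 37.1 CPM (lowest, median and highest) with DMSO at 8 h and 726, 932 and 1076 CPM with R1881. By 22 h it was 24.5, 26.4 and 28.6 CPM with DMSO and 24.7, 30.4 and 33.8 CPM with R1881. The R1881 libraries were far above all vehicle libraries at 8 h and overlapped them at 22 h. R1881 raised RDH10 28.5-fold at 8 h (log2 4.83 ± 0.06), and at 22 h the difference was 0.13 ± 0.07 (edgeR's quasi-likelihood test, adjusted p = 0.0678). The effect changed by −4.70 ± 0.09 (edgeR, adjusted p = 6.69e-44).

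FAM105A, currently named OTULINL, and the N-acetylgalactosamine transferase B4GALNT3 had the next largest losses among these. FAM105A was at 31.1, 35.2 and 40.1 CPM with DMSO and 238, 274 and 300.2 CPM with R1881 at 8 h, and its median at 22 h was 38.1 CPM with DMSO and 35.5 CPM with R1881. B4GALNT3 was at 10.9, 13.9 and 16.1 CPM with DMSO and 104, 125 and 146 CPM with R1881 at 8 h, with medians of 10.9 and 11.5 CPM at 22 h. For both genes the groups were apart at 8 h and overlapped at 22 h. The changes of the R1881 effect were −3.06 ± 0.07 and −3.05 ± 0.12 (edgeR, adjusted p = 1.33e-41 and 4.74e-29).

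GRHL2 and KLF5, transcription factors of epithelial cells, were also early rises. GRHL2 ranged from 230 to 261 CPM with DMSO and from 579 to 679 CPM with R1881 at 8 h, and from 196 to 228 and 159 to 181 CPM at 22 h. The R1881 libraries thus lay above the vehicle libraries at 8 h and below them at 22 h. GRHL2 rose by 1.41 ± 0.03 at 8 h and fell by 0.27 on the log2 scale at 22 h (edgeR, adjusted p = 7.52e-44 and 3.85e-11). KLF5, chosen after its values were seen, rose by 1.34 ± 0.07 at 8 h and differed by 0.02 ± 0.08 at 22 h. The death receptor gene TNFRSF10B rose by 1.55 ± 0.05 at 8 h and differed by −0.10 ± 0.05 at 22 h (edgeR, adjusted p = 0.0682), and its 22 h groups overlapped.

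NPR3, the clearance receptor of natriuretic peptides, led the early falls among the more abundant genes. Its level was 39.7, 42.7 and 48.2 CPM with DMSO and 6.67, 8.45 and 10.9 CPM with R1881 at 8 h. At 22 h it was 35.5, 40.3 and 46.0 CPM with DMSO and 30.4, 33.7 and 36.8 CPM with R1881. All R1881 libraries were below the vehicle libraries at 8 h, and the groups overlapped at 22 h. NPR3 fell to 0.196 of its vehicle level at 8 h and to 0.833 at 22 h, and the effect changed by 2.09 ± 0.08 (edgeR, adjusted p = 8.26e-30).

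For the monoacylglycerol lipase gene MGLL and the long non-coding RNA LINC01128, the return went past the vehicle level. MGLL was at 25.5, 32.0 and 37.9 CPM with DMSO and 10.6, 12.2 and 15.0 CPM with R1881 at 8 h, and at 24.2, 31.4 and 35.9 against 34.3, 40.0 and 51.2 CPM at 22 h. LINC01128 was at 60.3, 62.0 and 65.1 CPM with DMSO and 17.5, 22.7 and 24.6 CPM with R1881 at 8 h, and at 73.7, 79.8 and 84.2 against 94.9, 103 and 111 CPM at 22 h. The groups were apart at 8 h for both genes, and at 22 h they were apart for LINC01128 and overlapped for MGLL. At 22 h the R1881 effect was 0.42 ± 0.08 for MGLL and 0.37 ± 0.04 for LINC01128 (edgeR, adjusted p = 2.39e-06 and 1.54e-12). RDH11, a retinal reductase known as an androgen target, fell by 1.36 on the log2 scale at 8 h and differed by 0.03 ± 0.03 at 22 h (edgeR, adjusted p = 0.508).

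Sustained genes did not all hold a fixed response. Among the 752 sustained rises, the effect grew in 236, waned in 204 and could not be told apart between the times in 312. Among the 1099 sustained falls it grew in 474, waned in 107 and could not be told apart in 518. The median sustained rise was 1.86 at both times, and the median sustained fall was −1.61 at 8 h and −2.08 at 22 h.

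The androgen-regulated metalloreductase gene STEAP4 was at 4.98, 6.58 and 6.80 CPM with DMSO and 337, 392 and 435 CPM with R1881 at 8 h. By 22 h it was at 6.52, 7.37 and 7.75 CPM with DMSO and 877, 949 and 1095 CPM with R1881. Treated and vehicle libraries did not overlap at either time, and the treated libraries of 22 h were all above those of 8 h. The rise was 64.3-fold at 8 h and 132-fold at 22 h, a growth of 1.03 ± 0.08 (edgeR, adjusted p = 1.53e-16). NCAPD3, a condensin II subunit, went from medians of 96.2 and 3620 CPM at 8 h to 105 and 5528 CPM at 22 h, and its groups were apart at both times. Its effect grew by 0.45 ± 0.05 (edgeR, adjusted p = 1.05e-12).

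FKBP5, a co-chaperone of steroid receptors, was near its late level at 8 h. It was at 71.2, 80.7 and 86.0 CPM with DMSO and 2691, 2967 and 3188 CPM with R1881 at 8 h, and at 67.3, 71.3 and 76.2 against 3031, 3273 and 3579 CPM at 22 h. The groups were apart at both times, and the effect grew by 0.29 ± 0.05 (edgeR, adjusted p = 3.93e-07). KLK3, which encodes prostate-specific antigen, rose mostly later. It was at 14.2, 16.9 and 18.8 CPM with DMSO and 33.5, 37.6 and 46.9 CPM with R1881 at 8 h, and at 14.9, 17.8 and 19.98 against 177, 190 and 204 CPM at 22 h. Its groups were also apart at both times, but the rise went from 2.30-fold to 10.8-fold, a growth of 2.24 ± 0.09 (edgeR, adjusted p = 1.22e-29).

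TMPRSS2, an androgen-regulated membrane protease, rose 9.70-fold at 8 h and 26.5-fold at 22 h, and ERG rose 5.15-fold and 7.15-fold. The growth was 1.45 ± 0.04 for TMPRSS2 and 0.47 ± 0.04 for ERG (edgeR, adjusted p = 1.17e-35 and 2.65e-14). Median TMPRSS2 levels with R1881 were 536 CPM at 8 h and 1880 CPM at 22 h, and those of ERG were 616 and 1008 CPM. In both genes the lowest treated library of 22 h was above the highest treated library of 8 h.

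Other sustained rises lost much of their size. ERRFI1, an inhibitor of the epidermal growth factor receptor, was at 19.9, 23.0 and 25.6 CPM with DMSO and 741, 826 and 948 CPM with R1881 at 8 h, and at 20.7, 22.8 and 24.3 against 188, 203 and 234 CPM at 22 h. The rise waned from 36.6-fold to 9.003-fold, a change of −2.02 ± 0.07 (edgeR, adjusted p = 1.76e-33). SOX9, a transcription factor of prostate development, waned from 8.58-fold to 2.03-fold, a change of −2.08 ± 0.05 (edgeR, adjusted p = 5.10e-38). For ERRFI1 and SOX9 the groups were apart at both times. TNFAIP3, a ubiquitin-editing inhibitor of NF-kappaB that is induced by several steroid hormones, went from a 15.5-fold to a 1.87-fold rise and was no longer responsive by size at 22 h.

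Among the sustained falls, IGFBP3, which binds insulin-like growth factors outside the cell, dropped further with time. It was at 305, 321 and 390 CPM with DMSO and 9.88, 11.6 and 12.6 CPM with R1881 at 8 h, and at 241, 253 and 282 against 1.26, 2.14 and 2.71 CPM at 22 h. Each treated group lay below every vehicle library, and the fall was 28.7-fold at 8 h and 127-fold at 22 h (change −2.14 ± 0.11, edgeR, adjusted p = 1.95e-24). WNT2, a secreted WNT ligand, fell 22.6-fold and 161-fold, from vehicle medians of 105 and 83.9 CPM to 4.404 and 0.574 CPM. TRIB1, a pseudokinase that directs protein degradation, fell 28.4-fold at 8 h and 16.3-fold at 22 h, and its effect waned by 0.80 ± 0.07 (edgeR, adjusted p = 2.36e-14).

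**Figure D2:**
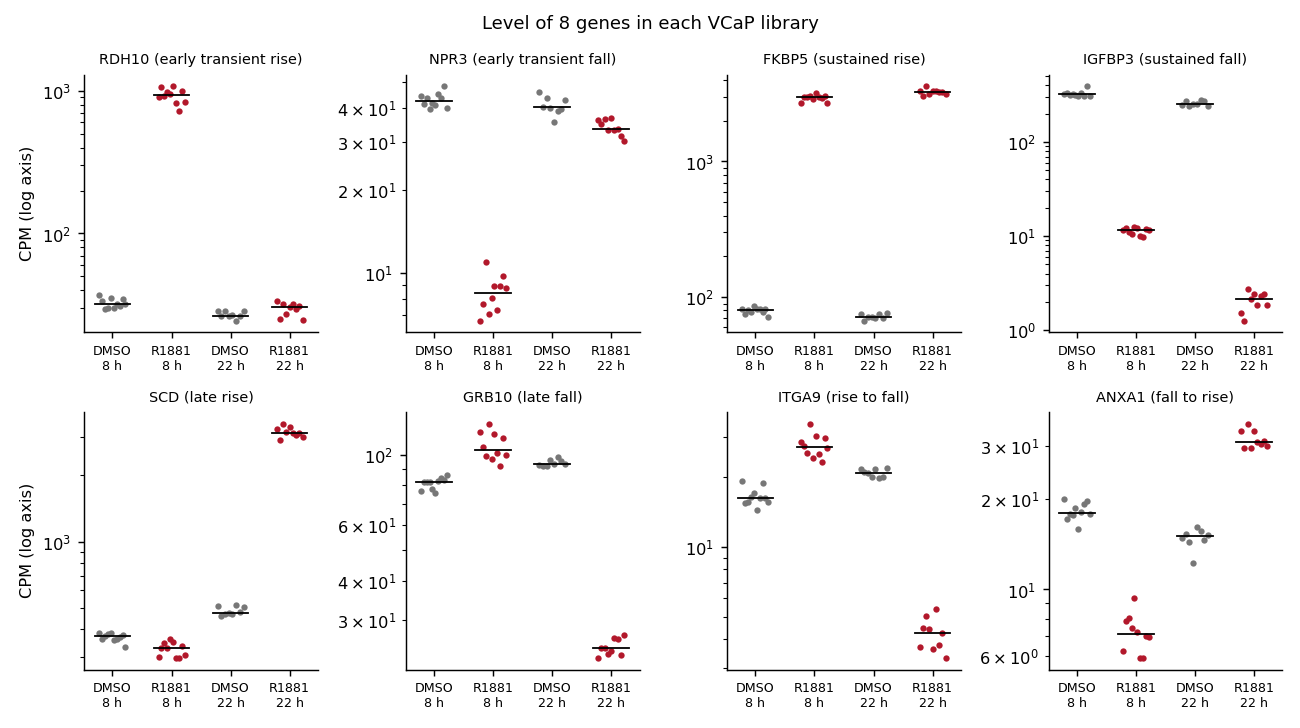
CPM on a log axis for 8 genes in each DMSO and R1881 library at 8 h and 22 h, with a line at each group's median. RDH10 and NPR3 depart from DMSO at 8 h and overlap it at 22 h, FKBP5 and IGFBP3 depart at both times, SCD and GRB10 move away mainly at 22 h, and ITGA9 and ANXA1 cross the vehicle level between the times.

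Among the more abundant genes, late rises were led by enzymes that introduce double bonds into fatty acids. SCD, the stearoyl-CoA desaturase, was at 332, 372 and 384 CPM with DMSO and 296, 330 and 359 CPM with R1881 at 8 h. At 22 h it was at 458, 476 and 513 CPM with DMSO and 2885, 3105 and 3436 CPM with R1881. The 8 h groups overlapped with the treated libraries slightly lower, and at 22 h every treated library was above every vehicle library. R1881 lowered SCD by 0.18 on the log2 scale at 8 h and raised it 6.48-fold at 22 h, a change of 2.87 ± 0.05 (edgeR, adjusted p = 3.07e-45). The processed pseudogene SCDP1 changed by 2.80 ± 0.09, but it is a copy of SCD and its reads cannot be told apart with certainty from those of SCD.

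FADS2, a fatty acid desaturase, was at 18.5, 22.7 and 24.4 CPM with DMSO and 22.8, 25.5 and 28.0 CPM with R1881 at 8 h, and at 21.0, 23.1 and 26.1 against 158, 174 and 196 CPM at 22 h. The groups overlapped at 8 h and were apart at 22 h, and the effect changed by 2.73 ± 0.07 (edgeR, adjusted p = 1.30e-38). FADS1 lies within the span of FADS2 on the opposite strand, and the strand setting of the counting is not given in the sources used here, so reads of the 2 genes may be mixed. FADS1 was at 75.3, 84.1 and 88.4 CPM with DMSO and 89.4, 100.4 and 109 CPM with R1881 at 8 h, and at 82.2, 90.4 and 92.6 against 345, 372 and 397 CPM at 22 h. Its effect changed by 1.79 ± 0.05 (edgeR, adjusted p = 5.03e-38).

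HES1, a transcriptional repressor downstream of Notch, and ATF5, a stress-responsive factor, were late rises as well. HES1 was at 1.34, 1.61 and 2.08 CPM with DMSO and 1.29, 1.86 and 2.32 CPM with R1881 at 8 h, and at 0.866, 1.13 and 1.36 against 14.6, 16.6 and 18.8 CPM at 22 h. The groups overlapped at 8 h, and R1881 raised HES1 14.8-fold at 22 h (change 3.71 ± 0.15, edgeR, adjusted p = 1.84e-29). ATF5 rose 4.46-fold at 22 h and 1.12-fold at 8 h, CCND1, the gene of cyclin D1, 2.07-fold and 1.21-fold, and BHLHE40, a repressor in the circadian clock, rose 2.77-fold at 22 h after a level of 0.729 of vehicle at 8 h.

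ADCY2, an adenylyl cyclase, GRB10, an adaptor that restrains insulin and insulin-like growth factor receptors, and GPC6, a cell-surface proteoglycan, led the late falls among the more abundant genes. ADCY2 was at 21.2, 23.9 and 25.2 CPM with DMSO and 26.4, 29.2 and 33.6 CPM with R1881 at 8 h, and at 24.0, 25.4 and 28.3 against 5.24, 6.62 and 7.77 CPM at 22 h. GRB10 was at 75.8, 82.1 and 86.3 CPM with DMSO and 91.8, 103 and 125 CPM with R1881 at 8 h, and at 91.7, 93.6 and 98.6 against 22.8, 24.5 and 27.0 CPM at 22 h. Both genes had risen a little at 8 h, with every treated library above every vehicle library, and lay below all vehicle libraries at 22 h. The effect changed by −2.33 ± 0.07 for ADCY2 and by −2.32 ± 0.06 for GRB10 (edgeR, adjusted p = 2.25e-34 and 1.30e-38).

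GPC6 was at 39.4, 43.0 and 45.9 CPM with DMSO and 31.5, 39.9 and 53.4 CPM with R1881 at 8 h, and at 55.3, 63.0 and 64.6 against 10.7, 11.7 and 14.1 CPM at 22 h. Its groups overlapped at 8 h and were apart at 22 h, and its effect changed by −2.30 ± 0.08 (edgeR, adjusted p = 9.12e-32). MAML2, a coactivator of Notch, fell 6.0-fold at 22 h and 1.18-fold at 8 h. FOSL2, an AP-1 subunit, rose by 0.43 ± 0.04 at 8 h and fell by 1.46 on the log2 scale at 22 h (edgeR, adjusted p = 5.69e-13 and 5.60e-33), just short of the 0.5 that would have placed it among the sign-switching genes.

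ITGA9, an integrin alpha chain, showed the largest reversal among the more abundant genes that rose and then fell. It was at 14.5, 16.3 and 19.3 CPM with DMSO and 23.4, 27.2 and 34.2 CPM with R1881 at 8 h. By 22 h it was at 19.8, 21.0 and 22.0 CPM with DMSO and 3.31, 4.25 and 5.38 CPM with R1881. All treated libraries were above the vehicle libraries at 8 h and below them at 22 h. ITGA9 rose by 0.73 ± 0.06 at 8 h and fell by 2.32 at 22 h on the log2 scale, a change of −3.05 ± 0.09 (edgeR, adjusted p = 2.73e-35).

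SLC24A2, a sodium, calcium and potassium exchanger, and ADAMTSL1, a secreted matrix protein, followed ITGA9. SLC24A2 was at 23.5, 26.7 and 27.6 CPM with DMSO and 36.2, 41.6 and 50.0 CPM with R1881 at 8 h, and at 23.8, 25.9 and 27.7 against 6.05, 6.77 and 8.82 CPM at 22 h. ADAMTSL1 was at 70.1, 77.7 and 85.2 CPM with DMSO and 111, 122 and 133 CPM with R1881 at 8 h, and at 74.99, 85.1 and 88.2 against 21.1, 23.8 and 26.0 CPM at 22 h. Neither gene had overlapping groups at either time, and the changes were −2.50 ± 0.08 and −2.48 ± 0.05 (edgeR, adjusted p = 1.74e-32 and 2.71e-41). IRS2, an adaptor of the insulin and insulin-like growth factor receptors, rose 1.98-fold at 8 h and went to 0.571 of vehicle at 22 h.

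Of the genes that fell and then rose, PLA2G4F, a cytosolic phospholipase, was at 16.7, 19.2 and 25.5 CPM with DMSO and 4.48, 6.11 and 7.39 CPM with R1881 at 8 h. At 22 h it was at 9.19, 12.6 and 14.4 CPM with DMSO and 28.9, 35.4 and 39.3 CPM with R1881. ANXA1, a phospholipid-binding annexin, was at 15.9, 18.02 and 19.97 CPM with DMSO and 5.91, 7.12 and 9.36 CPM with R1881 at 8 h, and at 12.3, 15.0 and 16.2 against 29.6, 31.1 and 35.7 CPM at 22 h. In both genes the treated libraries lay below all vehicle libraries at 8 h and above them at 22 h. The changes were 3.22 ± 0.12 for PLA2G4F and 2.44 ± 0.09 for ANXA1 (edgeR, adjusted p = 8.48e-31 and 6.66e-30).

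MYO1G, an unconventional myosin, ranged from 6.85 to 15.0 CPM with DMSO and from 3.74 to 8.19 CPM with R1881 at 8 h, where the groups overlapped. By 22 h it ranged from 6.62 to 13.0 and from 29.2 to 49.0 CPM, with no overlap (change 2.93 ± 0.20, edgeR, adjusted p = 6.15e-19). SPRY4, an inhibitor of receptor tyrosine kinase signalling, was almost without reads in the 8 h R1881 libraries, at 0.0448 to 0.323 CPM against 3.98 to 8.94 CPM with DMSO. At 22 h it was at 3.84, 6.07 and 6.55 CPM with R1881 and 2.48, 3.63 and 4.64 CPM with DMSO, and these groups overlapped. The R1881 effect on SPRY4 was −5.07 ± 0.21 at 8 h and 0.64 ± 0.14 at 22 h (edgeR, adjusted p = 1.41e-29 and 5.71e-05). GREM1, a secreted antagonist of bone morphogenetic proteins, also crossed over, from 0.495 of vehicle at 8 h to 2.40-fold at 22 h.

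Gene lists were written from general knowledge of androgen action, but with earlier results of these data known. They were read against these responses, each beside the shares of all tested genes that were called. Those shares were 32.8% up and 34.1% down at 8 h, and 37.4% up and 40.0% down at 22 h. For the change of the effect they were 28.1% higher at 22 h and 32.3% lower. Among 89 tested androgen response genes, 80 rose and 8 fell at 8 h and 76 rose and 7 fell at 22 h. The effect on this list was higher at 22 h for 49 and lower for 24, and its median went from 0.95 to 1.28. The list held 36 sustained rises.

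Genes of protein folding in the endoplasmic reticulum and of the unfolded protein response rose at 8 h and rose further by 22 h. Of 53 tested, 46 rose and 2 fell at 8 h, 52 rose and 0 fell at 22 h, and the effect was higher at 22 h for 44 and lower for 6 (edgeR's quasi-likelihood test, adjusted p under 0.05; the 22 h falls were also 0 at an unadjusted p under 0.05 and by DESeq2). The median went from 0.75 to 1.39. Of all tested genes, the effect was higher at 22 h for 28.1% and lower for 32.3%. DNAJC10, a reductase that helps fold proteins, was at 108, 114 and 120 CPM with DMSO and 136, 158 and 178 CPM with R1881 at 8 h, and at 82.9, 90.2 and 103 against 449, 481 and 543 CPM at 22 h, with no overlap at either time. HSPA5, the main chaperone of this compartment and chosen after its values were seen, rose 2.58-fold at 8 h and 3.36-fold at 22 h.

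The transcription factor XBP1, a central regulator of the unfolded protein response, rose 1.28-fold at 8 h and 2.10-fold at 22 h, and CRELD2, a secreted folding factor, rose 1.86-fold and 4.20-fold. Both were chosen after their values were seen, because the stretch before their transcription start holds the ER stress element, a sequence known to be bound by transcription factors of the unfolded protein response. The letters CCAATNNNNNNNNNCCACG, read on either strand, were searched in the 250 bases before each RefSeq transcription start on GRCh38.p14. They were present in 26 of 35116 windows (0.0740%) and in 9 of the 64 windows of this list (14.1%), which came from 49 matched genes, of which 8 held them. The 200 bases before the start of each gene are shown, with the element in capitals, from the minus strand of chr22:28800570-28800769 for XBP1 and the plus strand of chr22:49918434-49918633 for CRELD2.
XBP1: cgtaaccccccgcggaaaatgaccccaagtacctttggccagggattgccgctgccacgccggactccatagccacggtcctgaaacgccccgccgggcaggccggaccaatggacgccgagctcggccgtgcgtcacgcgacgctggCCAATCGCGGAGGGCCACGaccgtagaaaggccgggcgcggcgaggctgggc
CRELD2: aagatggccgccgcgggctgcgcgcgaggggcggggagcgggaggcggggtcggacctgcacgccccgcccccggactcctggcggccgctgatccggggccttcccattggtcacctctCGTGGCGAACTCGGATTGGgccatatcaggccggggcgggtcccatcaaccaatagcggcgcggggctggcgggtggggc
The element began 52 bases before the annotated start in XBP1 and 80 bases before it in CRELD2. A match of letters is a description of the window and not evidence that a factor bound there.

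COPII and COPI genes, which build the vesicle coats between the endoplasmic reticulum and the Golgi apparatus, moved in the same way. Of 45 tested, 40 rose and 2 fell at 8 h, 43 rose and 1 fell at 22 h, and the median went from 0.56 to 1.09. The coat subunit gene COPG1 rose 1.52-fold and then 3.14-fold. TMED3, a cargo receptor of the pathway, went from 0.746 of vehicle at 8 h to 1.97-fold at 22 h, and its groups were apart at both times.

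Cholesterol synthesis and uptake genes gained mainly between the times. Of 32 tested, 18 rose and 4 fell at 8 h, and 28 rose and 1 fell at 22 h. The effect was higher at 22 h for 28 and lower for 0 by edgeR, and lower for 0 also at an unadjusted p under 0.05 and by DESeq2, where the shares over all tested genes were 28.1% and 32.3%. The median went from 0.23 to 1.18. In the R1881 libraries 31 of the 32 genes rose from 8 h to 22 h, with a median of 1.09, and in the DMSO libraries 20 rose, with a median of 0.24. Over all tested genes the shares that rose were 33.3% with R1881 and 15.9% with DMSO.

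INSIG1, a sterol sensor of the endoplasmic reticulum, was at 40.7, 45.9 and 48.9 CPM with DMSO and 58.3, 64.8 and 82.0 CPM with R1881 at 8 h, and at 70.9, 77.4 and 86.6 against 699.8, 752 and 821 CPM at 22 h. The groups were apart at both times, and the rise went from 1.46-fold to 9.66-fold (change 2.72 ± 0.07, edgeR, adjusted p = 1.56e-38). SREBF1, the regulator of fatty acid synthesis genes, varied widely within groups, from 17.7 to 44.2 CPM with DMSO at 8 h, and its effect changed by 2.12 ± 0.21 (edgeR, adjusted p = 6.09e-13). SREBF1 and ACLY were chosen after their values were seen.

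Of 31 fatty acid synthesis genes tested, 15 rose and 8 fell at 8 h (12 of each under total counts) and 20 rose and 7 fell at 22 h. Of these, 8 were late rises: ACACA, ACLY, ACSS2, ELOVL6, FADS1, FADS2, ME1 and SCD, which together supply acetyl-CoA and reducing power, elongate the chain and desaturate it. Other members differed: the desaturase gene SCD5 rose and then fell, DGAT2 was a sustained fall, ACSS1 an early fall and ELOVL2 an early rise. ACSL3 and ELOVL7 were sustained rises. The effect on the list was higher at 22 h for 19 and lower for 6. ACLY, which makes cytosolic acetyl-CoA from citrate, was at 164, 182 and 201 CPM with DMSO and 222, 242 and 251 CPM with R1881 at 8 h, and at 203, 218 and 224 against 601, 635 and 668 CPM at 22 h. Its treated libraries were above the vehicle libraries at both times, and the rise went from 1.31-fold to 2.94-fold.

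Mitosis genes were the list in which the vehicle cells moved most. Of 50 tested, 26 rose and 3 fell at 8 h, which turned to 10 up and 16 down when libraries were scaled by total counts. At 22 h 3 rose and 42 fell, and the median went from 0.10 to −0.49. Within the R1881 libraries, however, 49 of the 50 rose and 1 fell from 8 h to 22 h, with a median of 0.68. In the DMSO libraries 49 rose and 0 fell over the same interval by edgeR, with 0 falls also at an unadjusted p under 0.05 and by DESeq2, and the median was 1.30. The share of all tested genes called over time was 71.0% in R1881 libraries (33.3% up and 37.6% down) and 29.8% in DMSO libraries (15.9% up and 13.9% down). Mitosis transcripts therefore increased in both groups, and by less with R1881.

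KIF20A, a kinesin of cytokinesis, was at 40.2, 45.2 and 49.3 CPM with DMSO and 70.8, 78.5 and 85.9 CPM with R1881 at 8 h, and at 133, 136 and 145 against 83.9, 93.1 and 102 CPM at 22 h. All treated libraries were above the vehicle libraries at 8 h and below them at 22 h, which placed KIF20A among the sign-switching genes although its R1881 libraries rose by 0.24 with time. TOP2A, the topoisomerase of dividing cells and chosen after its values were seen, had medians of 254 CPM with DMSO and 257 CPM with R1881 at 8 h and of 739 and 438 CPM at 22 h. MKI67, the proliferation marker and chosen in the same way, had medians of 88.2 and 103 CPM at 8 h and of 197 and 155 CPM at 22 h. For TOP2A and MKI67 the groups overlapped at 8 h and were apart at 22 h.

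The stretches before TOP2A and MKI67 are shown because they hold the letter patterns by which many mitosis genes are co-regulated, the CCAAT box and the cell cycle homology region. CCAAT on either strand was found in 41 of 54 windows of 250 bases of this list (75.9%) and in 32.0% of all windows, and in 62.5% of the windows of ER folding genes and 57.6% of those of cholesterol genes. TTTGAA on either strand was found in 26 of 54 (48.1%) and in 13.3% of all. AGAACA, a half-site of androgen response elements, was found on either strand in 7.41% of the windows of mitosis genes, 3.13% of ER folding and 3.03% of cholesterol windows, against 12.4% of all. CCAAT and TTTGAA are in capitals, on the minus strand of chr17:40417897-40418096 for TOP2A and of chr10:128126424-128126623 for MKI67.
TOP2A: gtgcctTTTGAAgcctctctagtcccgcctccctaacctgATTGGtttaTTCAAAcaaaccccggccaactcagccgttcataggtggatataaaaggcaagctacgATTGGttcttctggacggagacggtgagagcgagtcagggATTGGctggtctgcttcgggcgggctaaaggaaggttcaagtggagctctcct
MKI67: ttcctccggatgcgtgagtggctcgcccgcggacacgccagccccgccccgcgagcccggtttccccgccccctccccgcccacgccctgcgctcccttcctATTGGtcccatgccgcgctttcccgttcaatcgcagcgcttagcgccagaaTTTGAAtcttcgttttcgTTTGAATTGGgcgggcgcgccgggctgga
TOP2A held 3 CCAAT boxes and 2 TTTGAA runs, and MKI67 held 2 of each, with one pair overlapping. The promoters of 44 of the 50 genes were matched.

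**Figure D3:**
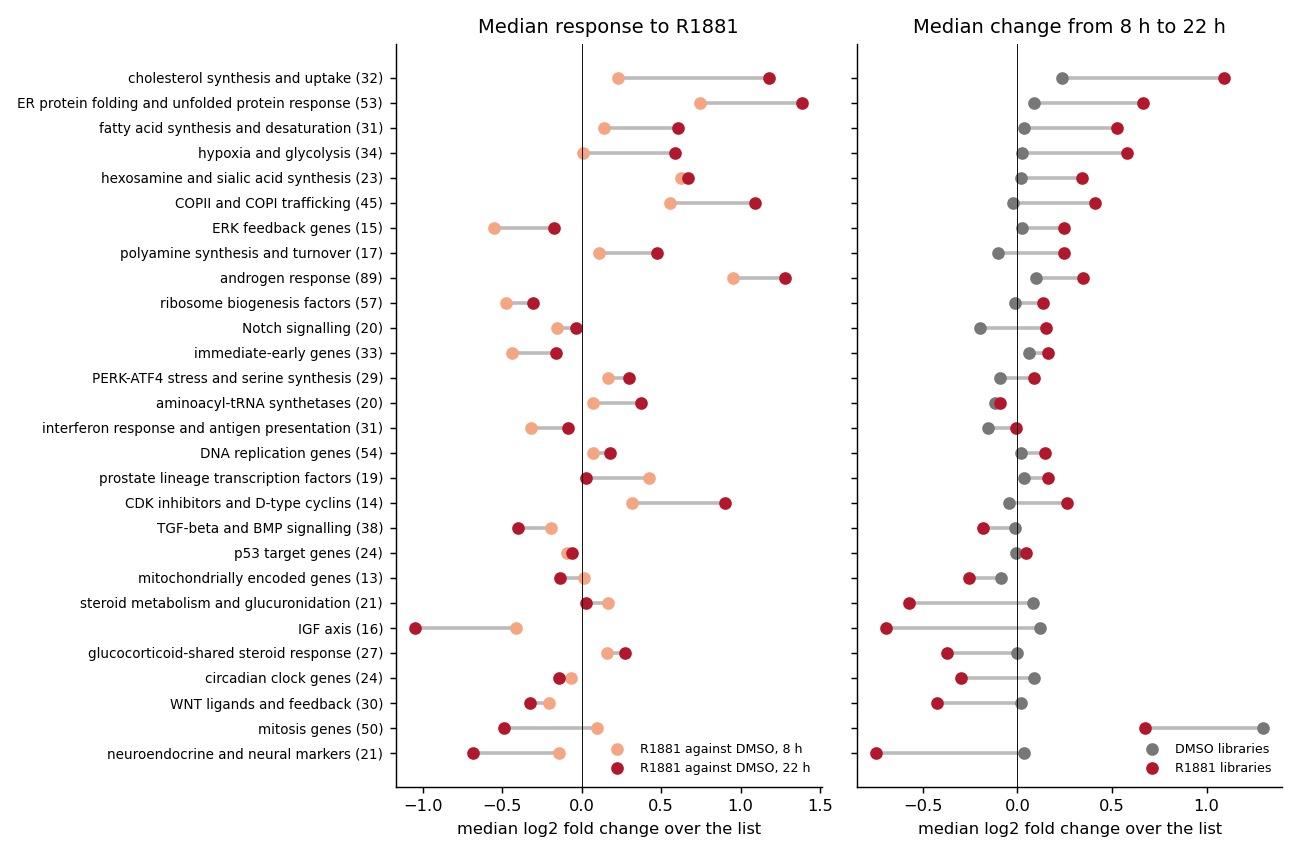
Left, the median log2 fold change of R1881 against DMSO for each gene list at 8 h and at 22 h; right, the median change from 8 h to 22 h within DMSO libraries and within R1881 libraries. Cholesterol genes move from 0.23 to 1.18 and ER folding genes from 0.75 to 1.39, while mitosis genes move from 0.10 to −0.49 although they gain 0.68 in R1881 libraries and 1.30 in DMSO libraries.

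DNA replication genes had 25 of 54 up and 15 down at 8 h (16 up and 24 down under total counts) and 31 up and 11 down at 22 h. MCM6, a subunit of the replicative helicase, was at 69.8 to 94.5 CPM with R1881 and 79.3 to 94.9 CPM with DMSO at 8 h, and at 102 to 114 against 63.3 to 75.4 CPM at 22 h, where the groups were apart. E2F8, a repressor of the cell cycle, differed in the other direction, from 1.92-fold at 8 h to 0.862 of vehicle at 22 h. CDKN1A, the cyclin-dependent kinase inhibitor p21, rose 2.01-fold at 8 h and 4.09-fold at 22 h.

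Ribosome biogenesis factors fell early and recovered in part. Of 57 tested, 1 rose and 51 fell at 8 h and 6 rose and 38 fell at 22 h, and the effect was higher at 22 h for 31 and lower for 6. The median went from −0.48 to −0.31. Of all tested genes, the effect was higher at 22 h for 28.1% and lower for 32.3%. The members with the smallest p-values for the change were among the 6 that fell further. FBL, the methyltransferase of ribosomal RNA, went from 0.866 to 0.501 of vehicle, and POLR1E, an RNA polymerase I subunit, from 0.590 to 0.342.

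Hypoxia and glycolysis genes had 16 of 34 up and 11 down at 8 h (11 up and 18 down under total counts) and 26 up and 6 down at 22 h, and the median went from 0.01 to 0.59. LDHA, lactate dehydrogenase A, was at 0.760 of vehicle at 8 h and 1.43-fold at 22 h, whereas MXI1, a MAX-binding repressor of the same list, fell 2.09-fold and then 10.0-fold. Among 17 polyamine genes, 8 rose and 6 fell at 8 h and 10 rose and 4 fell at 22 h. ODC1, the first enzyme of polyamine synthesis, rose 2.73-fold and then 8.97-fold, and SAT1, which acetylates polyamines for export, rose 2.20-fold and then 6.40-fold. In hexosamine and sialic acid synthesis, 17 of 23 rose and 2 fell at 8 h and 18 rose and 1 fell at 22 h. GNE, the first enzyme of sialic acid synthesis, rose 2.81-fold and then 5.79-fold, and GMDS, which starts the synthesis of GDP-fucose, was a late rise of 2.58-fold.

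Of 16 genes of the insulin-like growth factor axis tested, 6 rose and 10 fell at 8 h, 3 rose and 12 fell at 22 h, and the effect was lower at 22 h for 9 and higher for 0 (edgeR, with 0 also at an unadjusted p under 0.05 and by DESeq2). The other 7 were not called for the change. Of all tested genes, the effect was lower at 22 h for 32.3% and higher for 28.1%. The median was −0.41 and then −1.05. The ligand gene IGF1 and the receptor gene IGF1R were sustained rises, the binding protein gene IGFBP3 and the adaptor gene GRB14 sustained falls, and IGFBP5 and GRB10 late falls. Neuroendocrine and neural markers had 6 of 21 up and 11 down at 8 h and 3 up and 15 down at 22 h. PEG10, a retrotransposon-derived gene, went from 0.647 to 0.204 of vehicle and the granin gene CHGB from 0.850 to 0.450. CHGA, the granin used as a clinical marker and chosen after its values were seen, went from 0.747 to 0.343.

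The remaining lists were mixed. WNT ligands and feedback genes had 11 of 30 up and 12 down at 8 h and 8 up and 17 down at 22 h, and LEF1, their transcription factor, was 1.49-fold at 8 h and 0.958 of vehicle at 22 h. TGF-beta and BMP genes had 16 of 38 up and 19 down and then 13 up and 21 down, and LTBP1, which anchors latent TGF-beta, fell 3.36-fold and then 11.6-fold. Steroid metabolism and glucuronidation genes had 11 of 21 up and 10 down and then 10 up and 10 down, and CYP1B1, an oestrogen hydroxylase, rose 1.98-fold and then 7.74-fold. Several members of this list belong to the UGT2B and AKR1C families, whose near-identical copies share reads.

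The PERK and ATF4 branch of the stress response had 17 of 29 up and 6 down at 8 h and 18 up and 7 down at 22 h, and aminoacyl-tRNA synthetases had 10 of 20 up and 7 down and then 13 up and 5 down. SLC1A4, a carrier of serine and alanine, rose 2.33-fold and then 4.37-fold, MARS, the methionyl-tRNA synthetase, 1.65-fold and then 2.30-fold, and WARS, the tryptophanyl enzyme, was at 0.948 of vehicle and then 1.49-fold. Genes shared with the glucocorticoid response had 13 of 27 up at both times, with 11 down at 8 h and 10 at 22 h. Their effect was nevertheless higher at 22 h for 11 and lower for 15, against 28.1% and 32.3% of all tested genes. The list mean with R1881 was 0.96 to 1.13 log2 units above the DMSO mean at 8 h and 0.44 to 0.57 at 22 h. The median fold change of the list went from 0.16 to 0.27. Immediate-early genes had 12 of 33 up and 17 down and then 11 up and 15 down, and KLF4, a zinc finger factor among them, rose 1.94-fold and then 5.31-fold. ERK feedback genes had 4 of 15 up and 10 down and then 6 up and 6 down.

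Circadian clock genes had 9 of 24 up and 11 down at 8 h and 8 up and 12 down at 22 h, and the nuclear receptor gene RORB fell 1.48-fold and then 4.38-fold. Cell cycle inhibitors and D-type cyclins had 9 of 14 up and 5 down at both times, while the effect was higher at 22 h for 6 and lower for 6. The p53 targets had 8 of 24 up and 10 down and then 7 up and 11 down, and PLK2 fell 2.58-fold and then 9.11-fold. Interferon response genes had 8 of 31 up and 15 down and then 12 up and 13 down, Notch genes 4 of 20 up and 9 down and then 7 up and 8 down, and prostate lineage factors 10 of 19 up and 9 down and then 9 up and 7 down. Mitochondrially encoded genes had 1 of 13 up and 0 down at 8 h by edgeR, with 1 down at an unadjusted p under 0.05 and 1 by DESeq2, and 0 up and 7 down under total counts. At 22 h they had 1 up and 7 down, and MT-CO3 and MT-CO2 were at 0.808 and 0.843 of vehicle at 22 h.

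Libraries with R1881 plus darolutamide lay between DMSO and R1881 in the mean over each group at the times that defined it. Their levels entered none of the fold changes that defined the response groups. They did share in the read filter, the scaling and the estimate of the spread behind the calls. Early rises at 8 h were 1.49 to 1.67 log2 units above the DMSO mean with R1881 alone, 0.80 to 0.83 with 0.5 µM darolutamide and 0.30 to 0.34 with 2 µM. Late rises at 22 h were at 1.17 to 1.47, 0.77 to 0.85 and 0.35 to 0.58. Late falls at 22 h were at −1.42 to −1.27, −0.86 to −0.76 and −0.56 to −0.51. The 3 ranges did not overlap in these groups.

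Sign-switching genes switched with the antagonist as well, at a smaller size. Genes that rose and then fell were at 0.86 to 1.05 with R1881, 0.41 to 0.48 with 0.5 µM and 0.13 to 0.24 with 2 µM at 8 h, and at −1.17 to −1.07, −0.66 to −0.62 and −0.40 to −0.36 at 22 h. Genes that fell and then rose were at −1.04 to −0.75, −0.58 to −0.45 and −0.32 to −0.19 at 8 h, and at 0.84 to 1.05, 0.50 to 0.61 and 0.12 to 0.28 at 22 h. The darolutamide libraries are described against the same DMSO libraries, and these values carry no test.

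**Figure D4:**
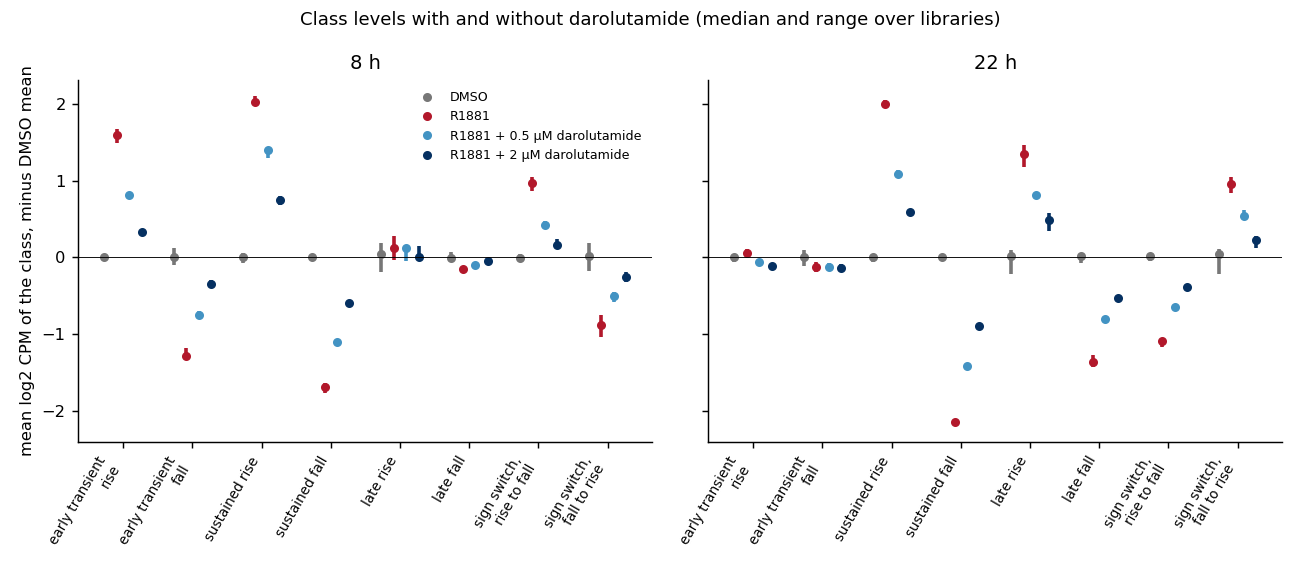
Mean log2 CPM over the genes of each response group minus the mean of the DMSO libraries, as the median (point) and range (bar) over libraries of DMSO, R1881, and R1881 with 0.5 or 2 µM darolutamide, at 8 h and 22 h. In the defining conditions the darolutamide groups sit between R1881 and DMSO, for example early rises at 8 h with 0.80 to 0.83 at 0.5 µM and 0.30 to 0.34 at 2 µM.

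Single genes did not always lie in between. RDH10 at 8 h had a median of 289 CPM with 0.5 µM and 40.1 CPM with 2 µM, against 932 CPM with R1881 alone. By 22 h it ranged from 11.1 to 13.7 CPM with 0.5 µM and from 12.6 to 17.6 CPM with 2 µM, below every DMSO library (24.5 to 28.6 CPM). NPR3 did the opposite, at 65.8 to 73.1 CPM with 0.5 µM and 56.0 to 65.3 CPM with 2 µM at 22 h, above every DMSO library (35.5 to 46.0 CPM). GRB10 at 8 h was at 40.7 to 44.3 CPM with 0.5 µM and 42.4 to 50.2 CPM with 2 µM, below the 75.8 to 86.3 CPM of DMSO, although R1881 alone had raised it to 91.8 to 125 CPM. SCD at 22 h kept a median of 1996 CPM with 0.5 µM and 1458 CPM with 2 µM, against 476 CPM with DMSO and 3105 CPM with R1881.

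Gene lists also differed in where the antagonist placed them. Cholesterol genes at 22 h were 1.21 to 1.40 above the DMSO mean with R1881, 0.90 to 0.98 with 0.5 µM and 0.65 to 0.78 with 2 µM. Mitosis genes at 22 h were −0.49 to −0.33 with R1881 but 0.32 to 0.37 with 0.5 µM and 0.31 to 0.46 with 2 µM, on the other side of the vehicle. TOP2A, for example, had medians of 823 CPM with 0.5 µM and 877 CPM with 2 µM at 22 h, against 739 CPM with DMSO and 438 CPM with R1881. Ribosome biogenesis factors at 22 h were −0.35 to −0.28 with R1881, 0.18 to 0.20 with 0.5 µM and 0.35 to 0.37 with 2 µM. DNA replication genes at 22 h were 0.17 to 0.24 above the DMSO mean with R1881, 1.23 to 1.32 with 0.5 µM and 1.28 to 1.31 with 2 µM, higher than with R1881 alone. For mitosis, ribosome biogenesis and DNA replication genes, neither darolutamide dose therefore lay between DMSO and R1881 at 22 h. The same held for the means of p53 targets, prostate lineage factors, Notch genes, aminoacyl-tRNA synthetases and interferon response genes. Some library ranges of these lists overlapped those of DMSO or R1881.

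Some response groups differed from all tested genes in median gene length, a property the grouping did not use. Gene spans from GENCODE 44 had a median of 26.8 kb over all tested genes with a unique match. Genes that rose and then fell had a median of 86.1 kb, and 47.2% of them were over 100 kb against 18.1% of all. Early rises had a median of 60.3 kb, late rises 16.7 kb and genes that fell and then rose 17.7 kb. Late falls, at 28.9 kb, and sustained rises, at 30.5 kb, lay near the median of all. A description of early falls and sustained falls was void, because 73.7% and 78.8% of them had a match. Late rises and genes that fell and then rose were also richer in G and C, with medians of 55.2% and 54.6% against 47.7%. The libraries differed from each other in how strongly log2 CPM depended on GC content, with overlapping ranges in the 4 groups. As a slope per percent of GC, its medians were −0.065 with DMSO and −0.074 with R1881 at 8 h. At 22 h they were −0.073 with DMSO and −0.066 with R1881. The part of this slope in the GC content of the groups was not tested. With this slope as a covariate, 85.1% of the late genes and 85.3% of the sign-switching genes kept their group.

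**Figure D5:**
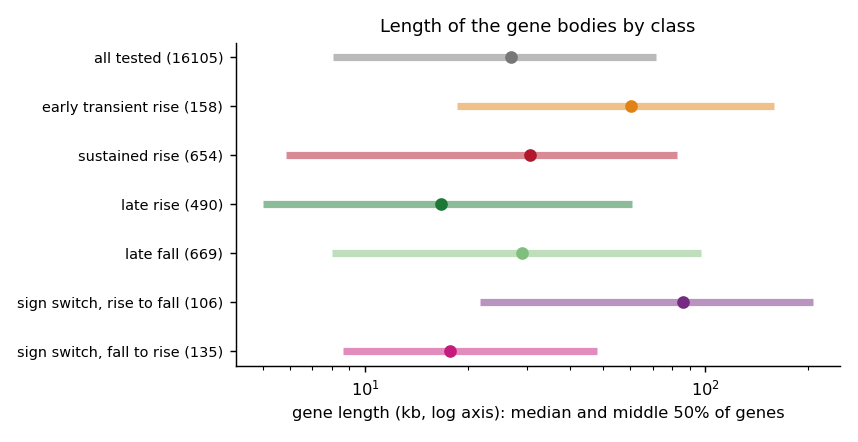
Gene length in kb on a log axis for the response groups in which at least 80% of genes had an annotated length, as the median (point) and middle 50% of genes (bar). Genes that rose and then fell have a median of 86.1 kb and late rises of 16.7 kb, against 26.8 kb for all tested genes.

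In LAPC4 cells the R1881 effect changed between the times for 584 of 18204 genes, 3.21% of those tested, of which 327 were higher at 22 h (1.80%) and 257 lower (1.41%). With the GC slope as a covariate this count was 1535. The change itself differed between the lines for 7778 of the 16578 genes tested in both (46.9%; edgeR's quasi-likelihood test on all groups of both lines). The response groups were formed from the VCaP change that enters this test, so its calls are not counted within them.

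Of 575 sustained rises tested in LAPC4, 126 rose there at 22 h (21.9%), against 6.83% of all genes tested in LAPC4 and 7.18% of those tested in both lines. The share that rose there at 22 h was 19.2% for genes that rose and then fell in VCaP cells, 17.0% for early rises and 9.15% for late rises. The shares that fell there at 22 h were 15.1%, 11.9% and 2.77% in the same order, and 5.04% for sustained rises. Of all genes tested in both lines, 6.16% fell. Of 628 sustained falls, 152 fell there at 22 h (24.2%), against 6.45% and 6.16%. FKBP5 rose by 0.62 at 8 h and 1.36 at 22 h in LAPC4 cells, and KLK3 by 0.96 and 1.65. ANXA1, which crossed over in VCaP cells, fell at both times in LAPC4 cells, by 0.58 and 1.17 on the log2 scale.

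The DMSO and R1881 groups hold libraries numbered 1 to 5 and libraries with higher numbers. The response groups were formed with each set in turn. All darolutamide libraries stayed in both fits and shared in the estimate of the spread, so the sets were not fully independent. At 22 h the numbers ended at 8 with DMSO and at 9 with R1881, so the second set was smaller there. Of 174 early rises formed from libraries 1 to 5, 144 had a change called in the same direction in the other libraries, where 48.3% of all genes were called and 24.8% were called lower at 22 h. The same held for 134 of 182 early falls and 393 of 438 late rises, where 23.5% of all were called higher, for 600 of 793 late falls, for 101 of 106 genes that rose and then fell and for 123 of 130 that fell and then rose. These groups were selected for large changes and the genes as a whole were not, so higher shares were to be expected and are no test. The labels also do not say that the sets came from separate cultures. Membership moved more: 112 early rises were assigned alike in both sets (64.4% of those from libraries 1 to 5 and 67.5% of those from the others), as were 95 early falls (52.2% and 46.3%), 301 late rises (68.7% and 48.5%) and 448 late falls (56.5% and 63.7%). Of the sign-switching genes, 70 that rose and then fell (66.0% and 74.5%) and 89 that fell and then rose (68.5% and 48.6%) were assigned alike. Sustained genes need no called change, and 610 rises (83.7% and 90.1%) and 921 falls (80.7% and 82.5%) were assigned alike. Of 729 sustained rises from libraries 1 to 5, 367 had a change called in the same direction in the other libraries and 115 had the opposite sign. Of 1141 sustained falls these were 465 and 203.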

How the data were processed

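The authors sequenced stranded poly-A libraries as single-end reads of 50 bases, used STAR for alignment to GRCh38 and featureCounts for counting, after base calling with bcl2fastq 2.17 per the submitters' processing notes. The deposited values are unnormalized read counts per gene in 1 table of 112 libraries. Gene annotation and strand setting are not given in the sources used here, so genes that overlap, run antisense or have near-identical copies are uncertain. The study's methods give 5 biological replicates, whereas the labels give up to 10 libraries per group, and all were used. Total counts in the 4 compared groups ranged from 12870607 to 25125789.

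Here, a gene was tested when 4 or more VCaP libraries held 10 or more of its reads. Counts were scaled by TMM, and the 8 VCaP groups were fitted together in edgeR 4.0.16 (R 4.3.3; glmQLFit, glmQLFTest). P-values were adjusted by Benjamini-Hochberg over all tested genes, with a limit of 0.05. The standard error of a log2 fold change is its size over the root of F. CPM use the same factors, and log2 CPM a prior count of 2. Scripts were tested on simulated counts in which 200 of 19266 genes had a planted change of effect and the others had none. The test recovered 76% of the planted genes, and 3.80% of its calls were false. A setting with as many changed genes as in the data, where 60.4% were called, was not simulated.

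The members, response groups and gene lists were chosen with earlier results of these data known. Named genes are the 3 with the largest change of effect in each of the 8 response groups above the median level (for sustained genes, the largest smaller response), FKBP5, KLK3, TMPRSS2 and ERG, and the 2 members of each list with the smallest p for the change. For other genes whose values are given, the text says that the values were known when they were chosen. Cell type markers, and list members named only by their response group, such as GRB14 and ACACA, carry no such remark. Promoter windows come from RefSeq and gene spans from GENCODE 44, both on GRCh38. Alternatives were DESeq2 1.42.0, RLE, upper-quartile and total-count scaling, other filters, fits of the 4 groups, a replicate block, a GC covariate and other size limits. DMSO and R1881 libraries 1 to 5, or 6 and above, were also fitted in turn, with all darolutamide libraries kept. LAPC4 libraries were fitted in the same way. All columns could be mapped to samples. A few genes that meet the rule for named genes are not reported here.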

Additional observations from a re-analysis of the deposited data

Results flagged for a closer look

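Among 108 combinations of gene and group over 27 named genes, 7 held a library that stood apart from the rest of its group by Dixon's criterion, where chance gives about 1 in 20. They were LINC01128 at 17.5 CPM in R1881 8 h replicate 1, IGFBP3 at 390 CPM in DMSO 8 h replicate 9, SCDP1 at 11.5 CPM in DMSO 8 h replicate 6 and at 10.7 CPM in R1881 8 h replicate 5. ADCY2 at 28.3 CPM and GPC6 at 55.3 CPM both stood apart in DMSO 22 h replicate 2, and ANXA1 at 12.3 CPM in DMSO 22 h replicate 4. The direction and call of each of these genes were the same with DMSO and R1881 libraries 1 to 5 and with those numbered 6 and above.

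By the interaction test of edgeR, the R1881 effect differed between 22 h and 8 h in VCaP cells for 11633 genes, of which 278 switched sign. The change over time differed between VCaP and LAPC4 cells for 7778 genes.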

How the results depend on the processing

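The counts of called genes and of response group members stayed within 1.5 times under 90 alternatives, and the change of effect of the 27 genes kept its direction and its side of the threshold under all 324. The 90 include sustained genes with another residual limit and sign-switching genes with another size limit, whose definitions do not use those limits. Membership was less stable. Total-count scaling kept 74.2% of early transient, 92.5% of sustained, 75.1% of late and 75.2% of sign-switching genes. Upper-quartile scaling kept 75.8%, 93.8%, 79.1% and 79.9%. The size limits moved the groups most. With a log2 limit of 2 in place of 1 there were 63 early transient, 494 sustained and 182 late genes, and with a residual limit of 0.25 in place of 0.5 there were 177 early transient, 753 late and 767 sign-switching genes. In LAPC4 cells the GC slope raised the calls from 584 to 1535, and at an unadjusted p under 0.05 there were 2487. Total-count scaling moved the median gene at 8 h from −0.03 to −0.18, and at 22 h it moved from −0.03 to −0.14.

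Replicate numbers did not pair the libraries: 12 of 52 same-number pairs correlated above 0.1 in their deviations, and 4 of 37 libraries correlated best with their own number. In fits with a replicate block, the change of effect was called for 11158 genes, R1881 at 8 h for 12635, R1881 at 22 h for 14579, the LAPC4 change for 749 and the difference between lines for 7769. No replicate was left out singly, since groups hold 8 to 10 libraries. The main limits are the strand setting, the few reads behind genes such as SPRY4, and that nothing in the labels says which libraries came from separate cultures.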
